A study of Homo sapiens with 24 samples.

Results

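The genes described here are 9 genes of cellular iron uptake, storage, export and sensing, among 23106 gene symbols counted by RNA-seq in RCC4+VHL renal carcinoma cells. They were chosen by symbol for their roles in iron handling. They are TFRC and SLC11A2 for uptake, FTH1, FTL and NCOA4 for storage and its release, SLC40A1 for export, and ACO1, IREB2 and FBXL5 for sensing. All 9 were in the files and all 9 passed the filter on low counts, with 11735 genes tested in all.

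RCC4+VHL cells are a line made from VHL-deficient renal cancer cells by returning wild-type VHL, so that HIF-α is again destroyed in the presence of oxygen, and every group in the study carries that transgene. ITE is an agonist of the aryl hydrocarbon receptor (AHR), a transcription factor that shares the partner HIF-1β/ARNT with HIF-1α and HIF-2α. The 4 groups held 6 libraries each and were kept for 6 h at 21% oxygen (normoxia) or 0.5% oxygen (hypoxia), with either 100 nM ITE or 0.1% DMSO as vehicle. All cells had first been grown in phenol red-free medium with charcoal-treated serum, and the study's methods call the 6 replicates of a group independent.

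Iron enters most cells bound to transferrin, through the transferrin receptor encoded by TFRC, and leaves the endosome through SLC11A2 (DMT1). Iron that is not used is stored in ferritin, a shell of heavy (FTH1) and light (FTL) chains, from which NCOA4 delivers it to the lysosome, and SLC40A1 (ferroportin) exports it. When iron is scarce, the iron regulatory proteins IRP1 (ACO1) and IRP2 (IREB2) bind a stem-loop called the iron-responsive element (IRE). Binding blocks translation of mRNAs that carry the element in the 5′ UTR and stabilises mRNAs that carry it in the 3′ UTR, and FBXL5 is the ubiquitin ligase subunit that marks IRP2 for destruction when iron and oxygen are present. TFRC is also known as a target of HIF.

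The elements are shown because they mark mRNAs that an IRP could stabilise, TFRC among these, and mRNAs whose translation it could block. In the canonical GENCODE transcripts on GRCh37, a script searched the sense strand for a C, any 5 bases and the loop CAGTG followed by A, C or T, with the 5 bases on either side of the loop able to pair (G with T allowed). The capitals mark the 6 loop bases, and the numbers count from the start of the UTR.
TFRC 3′ UTR, base 944 (chr3:195777850-195777878, minus strand): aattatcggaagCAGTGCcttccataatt
TFRC 3′ UTR, base 1348 (chr3:195777446-195777474, minus strand): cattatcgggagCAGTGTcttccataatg
TFRC 3′ UTR, base 1413 (chr3:195777381-195777409, minus strand): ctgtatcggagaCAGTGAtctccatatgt
TFRC 3′ UTR, base 1460 (chr3:195777334-195777362, minus strand): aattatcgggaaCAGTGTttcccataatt
FTH1 5′ UTR, base 39 (chr11:61735046-61735074, minus strand): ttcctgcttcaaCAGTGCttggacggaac
FTL 5′ UTR, base 33 (chr19:49468592-49468620, plus strand): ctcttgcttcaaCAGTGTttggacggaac
SLC40A1 5′ UTR, base 104 (chr2:190445387-190445415, minus strand): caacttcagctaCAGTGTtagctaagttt
The other members held no match in these transcripts, which says only that this pattern was not in those UTRs. Other transcripts of the same genes, which can differ in their UTRs, were not searched. Of 19894 transcripts, 10 held a match in the 5′ UTR (0.0503%) and 98 in the 3′ UTR (0.493%).

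Promoters were searched because HIF binds a core of ACGTG or GCGTG and AHR a core of GCGTG. RefSeq promoter windows (250 bases before to 50 after the start, GRCh38.p14) were matched for 8 of the 9 members. FTH1 had no entry. On either strand, ACGTG was present in TFRC, FTL and FBXL5 and in 21.4% of 35116 promoters, and GCGTG in FTL, ACO1 and SLC11A2 and in 36.5%. The windows around ACGTG, in capitals, of the receptor gene and of FBXL5 are given with their positions from an exact match to GRCh37. They are read on the strand of the gene, and the FBXL5 copy reads the same on both strands together with the base before it.
TFRC promoter, 88 bases before the start (chr3:195809035-195809059, minus strand): tcgcgagcgtACGTGcctcaggaag
FBXL5 promoter, 119 bases before the start (chr4:15657085-15657109, minus strand): gcgcccggtcACGTGggccgcaggg
These matches are descriptions of letters, and binding was not measured here.

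Library totals lay between 770094 and 93851342 counts, and values below are CPM, counts relative to TMM-scaled library sizes, unless said otherwise. For hypoxia + DMSO replicate 2, which had the fewest counts, a level of 4.12 CPM was 3 counts, a floor that covers counting error only. Gene deviations were taken from the mean of all 24 libraries and so include differences between groups. In 3 libraries, over 20% of their variance followed the GC content and length of transcripts. They were hypoxia + DMSO replicate 1 (24.9%), hypoxia + ITE replicate 3 (28.6%) and hypoxia + ITE replicate 6 (44.4%), against at most 14.4% in the other 21, and the values for hypoxia below are set beside those of a fit without them (edgeR, 21 libraries). Both treatments were seen in marker genes. NDRG1, a HIF target, rose by 3.25 on the log2 scale in hypoxia with DMSO (SE 0.15, edgeR quasi-likelihood adjusted p = 5.68e-15), and CYP1B1, an AHR target, rose by 2.51 with ITE in normoxia (SE 0.20, edgeR adjusted p = 7.64e-09). All 7 renal carcinoma markers were expressed (summed level 3550 to 7420 CPM). The summed level of the erythroid markers reached at most 0.0891 CPM, with HBA2 at 0 in all 24 libraries. The 4 leukocyte markers summed to between 5.5 and 15.6 CPM in both normoxia groups and hypoxia + DMSO, and to between 9.54 and 31.4 CPM in hypoxia + ITE, and CD68 was the only marker among them to be tested. CD68 was at 31.4 CPM in hypoxia + ITE replicate 6 and at 9.54 to 17.8 CPM in the other 5. KRT19 was the only renal marker past the threshold with hypoxia in the presence of ITE (0.89, edgeR adjusted p = 0.0375) and PAX2 the only such marker for both stimuli together (0.75, edgeR adjusted p = 0.037). KRT19 was at 828 CPM in hypoxia + ITE replicate 6 and at 168 to 337 CPM in the other 5, and without the 3 libraries it was at 0.30 (edgeR adjusted p = 0.149). In that fit KRT19 passed in hypoxia with DMSO (0.37, edgeR adjusted p = 0.0274). VIM passed there too (0.26, edgeR adjusted p = 0.00325), as it did in hypoxia with ITE (0.28, edgeR adjusted p = 0.00406) and with both stimuli (0.25, edgeR adjusted p = 0.0096). PAX2 was at 0.75 with both stimuli (edgeR adjusted p = 0.0165). The part of these shifts in the results below was not tested.

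The levels of the 9 mRNAs differed widely. Per kilobase of canonical transcript, the order in normoxia + DMSO was FTL (mean 2145 CPM per kb ± 198, SD, n = 6), FTH1 (2067 ± 137), TFRC (159 ± 15), NCOA4 (69.8 ± 2.07), ACO1 (18.9 ± 2.38), FBXL5 (12.5 ± 1.01), SLC11A2 (11.1 ± 0.784), IREB2 (8.81 ± 0.273) and SLC40A1 (1.06 ± 0.401). FTL and FTH1 overlapped in their libraries, as did FBXL5 and SLC11A2, while each other neighbour in the order was separated in all 6 libraries. Among 10653 tested genes with a known length, FTL ranked 8, FTH1 10, TFRC 409 and NCOA4 1050, whereas SLC40A1 ranked 9550. The 2 ferritin genes together took between 0.417% and 0.611% of all counts. Between the IRP mRNAs, ACO1 stood above IREB2 in each group mean per kilobase. With ITE in normoxia, FBXL5 (16.0 ± 1.47 CPM per kb) overlapped with ACO1 (19.5 ± 2.11) and no longer with SLC11A2 (11.1 ± 1.66).

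Reads that did not map uniquely had been removed by the authors, which bears on ferritin because the annotation holds 25 pseudogenes named after FTH1 and 16 named after FTL. Of these, 3 were among the counted symbols. FTH1P18 and FTLP10 had 0 counts in all libraries, and FTH1P3 had 14 counts over 24 libraries. The number of ferritin reads lost was not tested, so ferritin levels may be too low. BEST1 overlaps FTH1 by 5798 bases on the opposite strand and had 54 counts in all.

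**Figure D1:**
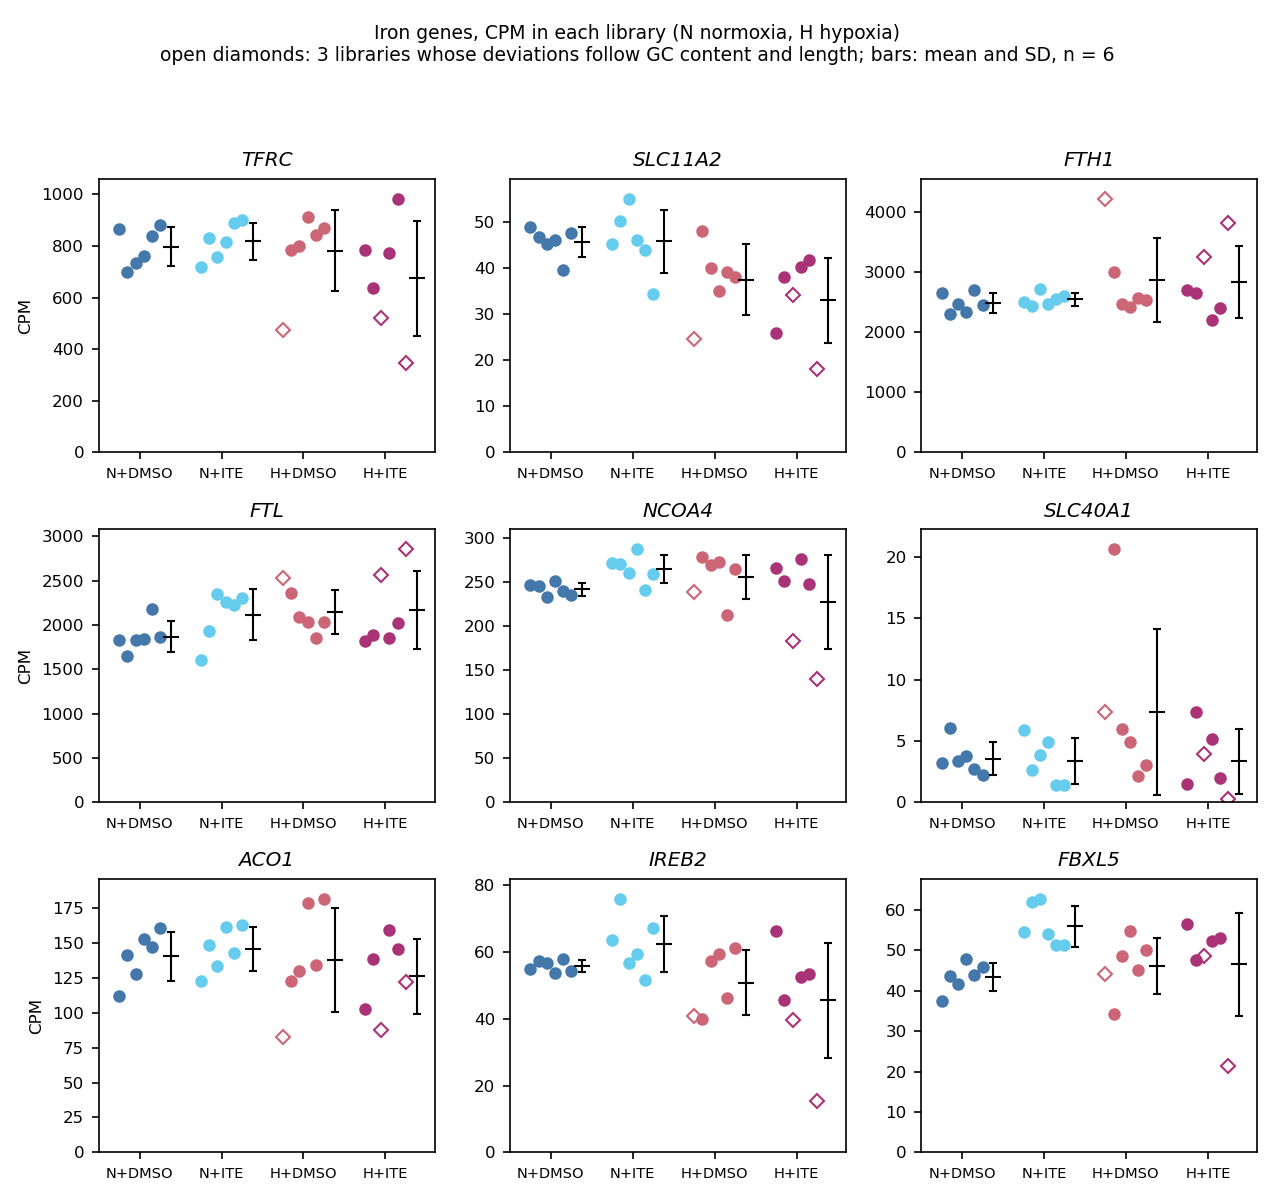
CPM (vertical axis, linear, from 0) of the 9 iron genes in each of the 24 libraries, by group (horizontal axis), with the mean and SD of 6 libraries as black bars. Open diamonds are the 3 libraries whose deviations follow GC content and length; they hold the lowest TFRC and the highest FTH1 values of their groups, and FBXL5 in normoxia + ITE (51.2 to 62.7 CPM) lies above normoxia + DMSO (37.6 to 47.8 CPM).

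ITE alone was compared with vehicle in normoxia to ask which genes AHR activation moves when HIF is low. None of the 9 iron genes passed the threshold (adjusted p under 0.05, edgeR quasi-likelihood test with Benjamini-Hochberg adjustment over 11735 genes). Over all genes 0.0511% were called higher and 0% lower, with 171 genes, 1 of them a member, at an unadjusted p under 0.05. DESeq2 also called 0 members, whereas limma voom with sample quality weights called 1, FBXL5. Over the fits tried, 5 to 159 of all genes were called higher and 0 to 95 lower. The median log2 fold change was 0.05 over the 9 members and 0.00 over all genes.

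FBXL5, the iron- and oxygen-sensing subunit of the ligase for IRP2, was the member with the smallest p. Its level was 37.6 CPM at the lowest, 43.8 at the median and 47.8 at the highest in normoxia + DMSO, and 51.2, 54.3 and 62.7 CPM in normoxia + ITE. The 2 groups did not overlap, and so the ITE library was higher in 6 of 6 pairs of the same number. Groups without overlap were found for 0.477% of all genes in the higher direction and 0.213% in the lower. The fitted log2 fold change was 0.36 (SE 0.15, 95% interval 0.06 to 0.67), with an unadjusted p of 0.0214 and an adjusted p of 1 (edgeR quasi-likelihood test). The size hardly moved between the fits tried, from 0.33 to 0.37, but the adjusted p did. It was 0.0536 with the normoxia libraries alone (edgeR), 0.00137 with the normoxia libraries alone and the replicate number as a block (edgeR), 0.0648 without the 3 libraries named above (edgeR) and 0.00678 with sample quality weights (limma voom). In hypoxia the ranges of FBXL5 were 34.4 to 54.8 CPM with DMSO and 21.5 to 56.5 CPM with ITE, and the groups overlapped, with a log2 fold change for ITE of -0.01 (95% interval -0.33 to 0.30). The interaction, which tests the difference between these 2 effects of ITE, was -0.38 (SE 0.21, edgeR adjusted p = 0.915), and so a difference between normoxia and hypoxia was not shown. Without the 3 libraries, the effect of ITE in hypoxia was 0.11 (95% interval -0.10 to 0.31) and the interaction -0.24 (SE 0.13, edgeR adjusted p = 0.999).

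**Figure D2:**
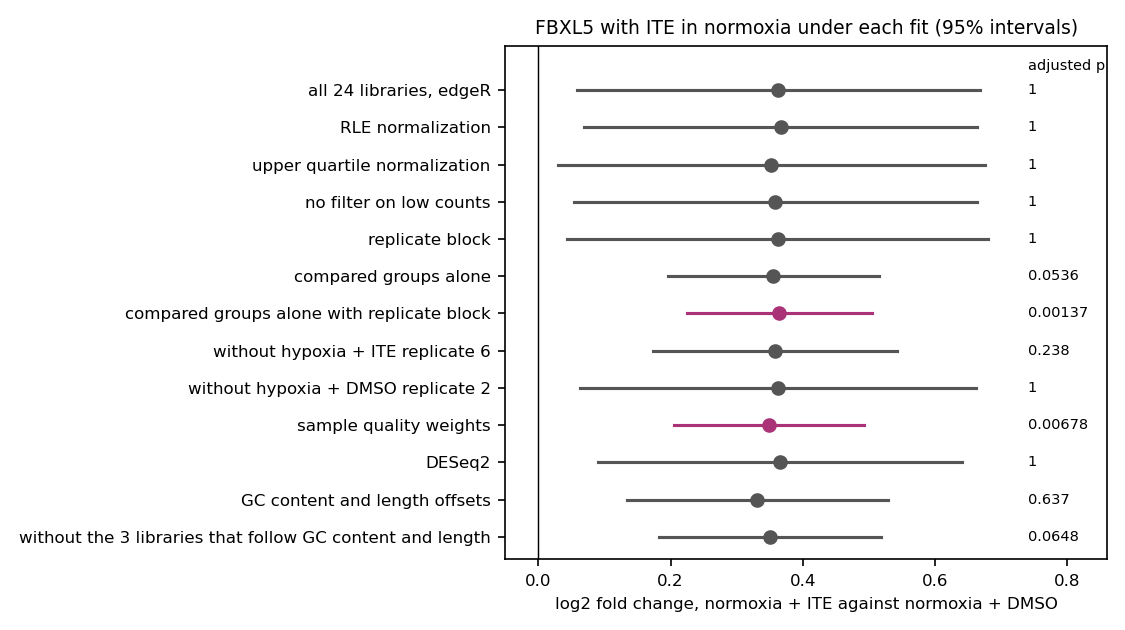
Log2 fold change of FBXL5 for normoxia + ITE against normoxia + DMSO (horizontal axis; points, with 95% intervals as lines) under each fit (vertical axis), with the adjusted p at the right. All 13 intervals lie above 0, and the 2 fits in purple, with adjusted p of 0.00137 and 0.00678, passed the threshold.

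For the other sensors, ACO1 changed by 0.05 (95% interval -0.27 to 0.37) and IREB2 by 0.16 (-0.22 to 0.54) with ITE in normoxia. IREB2 had been tightly spaced in normoxia + DMSO, at 53.7 to 57.7 CPM, and spread from 51.7 to 75.7 CPM in normoxia + ITE. Among the storage genes, FTL was 0.18 (-0.08 to 0.43), FTH1 0.04 (-0.24 to 0.31) and NCOA4 0.13 (-0.12 to 0.38). Like FBXL5, NCOA4 was higher with ITE in 6 of 6 pairs of the same number, although its groups overlapped. The share of all genes with such pairs is not given, so nothing is read from this count. The uptake genes were TFRC at 0.04 (-0.31 to 0.39) and SLC11A2 at 0.00 (-0.32 to 0.33), and SLC40A1 was at -0.16 (-1.12 to 0.81). These intervals leave room for changes of up to 1.46-fold in IREB2 and 1.31-fold in TFRC, so they do not show that the levels were equal.

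**Figure D3:**
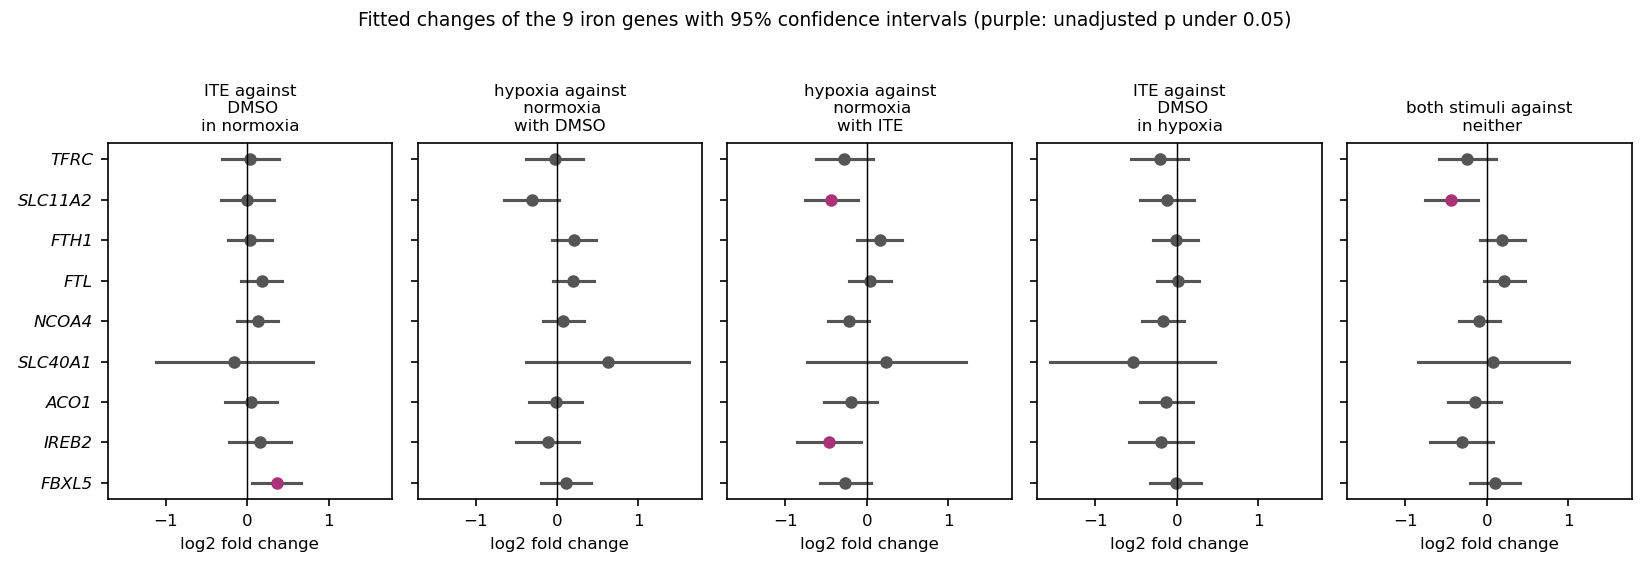
Log2 fold change (horizontal axis; points, with 95% intervals as lines) of the 9 iron genes (vertical axis) in 5 comparisons, with purple points for an unadjusted p under 0.05. FBXL5 with ITE in normoxia, SLC11A2 and IREB2 with hypoxia in the presence of ITE, and SLC11A2 with both stimuli are purple, and SLC40A1 has the widest intervals.

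Hypoxia was compared with normoxia in vehicle-treated cells to ask which genes HIF activation and low oxygen move in 6 h. Again 0 of 9 iron genes passed the threshold, by edgeR, DESeq2 or limma voom. An unadjusted p under 0.05 was found for 0 members and for 1111 of all genes. Over all genes, 1.16% were called higher and 0.136% lower. Libraries of the 2 groups were separated for 1.8% of genes in the higher and 0.937% in the lower direction, and overlapped for all 9 members. The members' median log2 fold change was 0.08, and that of all genes -0.00.

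TFRC, the receptor gene with the ACGTG promoter match and the 3′ UTR elements shown above, ranged from 700 to 881 CPM (median 799.9) in normoxia + DMSO and from 475 to 914 CPM (median 821) in hypoxia + DMSO. In hypoxia, 5 libraries lay between 786 and 914 CPM and replicate 1 alone lay at 475 CPM. TFRC thus had a log2 fold change of -0.03 (SE 0.17, 95% interval -0.38 to 0.32, edgeR adjusted p = 0.981). Without the 3 libraries that follow GC content and length, the mean in hypoxia was 842 CPM ± 52.1 (SD, n = 5) against 797 ± 75.3 (n = 6), and the log2 fold change was 0.07 (SE 0.08, 95% interval -0.10 to 0.25, edgeR adjusted p = 0.759). Both fits left the gene short of the threshold, and the narrower interval ends at a log2 fold change of 0.25.

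The ferritin chains had their highest hypoxic values in that same replicate 1. FTH1 ranged from 2305 to 2703 CPM (median 2457) in normoxia + DMSO and from 2415 to 4216 CPM (median 2559) in hypoxia + DMSO, where replicate 1 was at 4216 CPM and the other 5 at 2415 to 3009 CPM. FTL ranged from 1649 to 2182 CPM (median 1841) and from 1849 to 2529 CPM (median 2062). The groups overlapped for both chains. The log2 fold changes were 0.21 for FTH1 (SE 0.13, edgeR adjusted p = 0.669) and 0.20 for FTL (SE 0.12, edgeR adjusted p = 0.65), and without the 3 libraries they were 0.05 and 0.14. NCOA4, the receptor that takes ferritin to the lysosome, was at 232 to 251 CPM in normoxia + DMSO and at 213 to 278 CPM in hypoxia + DMSO, with a log2 fold change of 0.08 (95% interval -0.17 to 0.33).

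SLC11A2, the endosomal iron transporter, had the lowest unadjusted p of the members in hypoxia with DMSO. Its level was 39.6 CPM at the lowest, 46.5 at the median and 48.9 at the highest in normoxia + DMSO, and 24.7, 38.6 and 48.1 CPM in hypoxia + DMSO. The hypoxic library was lower in 5 of 6 pairs of the same number, and the groups overlapped. The log2 fold change was -0.31 (SE 0.16, 95% interval -0.65 to 0.02, unadjusted p = 0.0645, edgeR adjusted p = 0.563), and without the 3 libraries -0.24 (SE 0.11, 95% interval -0.46 to -0.02, edgeR adjusted p = 0.267).

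SLC40A1, the exporter, had the lowest level per kilobase and the widest intervals. It ranged from 2.22 to 6.04 CPM (median 3.26) in normoxia + DMSO and from 2.14 to 20.6 CPM (median 5.45) in hypoxia + DMSO. The highest value, in replicate 2, rested on 15 counts in the shallowest library. The log2 fold change of 0.62 had an interval from -0.38 to 1.62, and a change was not detectable beyond the spread of these libraries. It was 0.41 without the 3 libraries (95% interval -0.54 to 1.36). Libraries with more counts also differed, such as 5.91 CPM on 48 counts and 1.45 CPM on 73 counts in normoxia + ITE. The sensors ACO1 (-0.02, 95% interval -0.34 to 0.31), IREB2 (-0.12, -0.51 to 0.28) and FBXL5 (0.11, -0.20 to 0.42) did not pass either. The values were 0.09 for ACO1, -0.05 for IREB2, 0.13 for FBXL5 and 0.08 for NCOA4 without the 3 libraries.

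The same comparison in the presence of ITE asks whether hypoxia moves the genes when AHR is also active. It shares no libraries with the comparison in DMSO. Over all genes, 1.89% were called higher and 0.46% lower, and again 0 of 9 members passed by edgeR, DESeq2 or limma voom. An unadjusted p under 0.05 was found for 2 members, SLC11A2 and IREB2, and for 2361 of all 11735 genes. Separated groups were found for 1.21% of genes higher and 0.92% lower, and for no member. The members' median was -0.22 against 0.02 for all genes, and without the 3 libraries it was -0.06.

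SLC11A2 was at 34.5, 45.7 and 54.9 CPM (lowest, median and highest) in normoxia + ITE and at 18.1, 36.1 and 41.7 CPM in hypoxia + ITE. The hypoxic library was lower in 6 of 6 pairs of the same number, although the ranges overlapped. Here too, the share of all genes with such pairs is not given. The log2 fold change was -0.44 (SE 0.16, 95% interval -0.76 to -0.11, unadjusted p = 0.0109, edgeR adjusted p = 0.128), and without the 3 libraries -0.26 (SE 0.11, 95% interval -0.49 to -0.03, edgeR adjusted p = 0.315). With both stimuli against neither, SLC11A2 had similar values (-0.43, SE 0.16, edgeR adjusted p = 0.134; without the 3 libraries -0.27, adjusted p = 0.268).

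IREB2, which encodes IRP2, was at 51.7, 61.4 and 75.7 CPM in normoxia + ITE and at 15.5, 49.0 and 66.1 CPM in hypoxia + ITE. The lowest value was replicate 6, the library in which 44.4% of the variance followed GC content and length, and the IREB2 transcript has the lowest GC content of the members at 38.2%. The part of base composition in that value was not tested. The fitted change was -0.47 on the log2 scale (SE 0.19, 95% interval -0.86 to -0.08, edgeR adjusted p = 0.165), and -0.24 without the 3 libraries (SE 0.11, edgeR adjusted p = 0.354). The ratio of IREB2 to ACO1, which does not depend on library scaling, had a mean log2 value of -1.22 in normoxia + ITE and -1.57 in hypoxia + ITE, or -1.32 without the 3 libraries.

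In hypoxia + ITE, TFRC was at 347 CPM in replicate 6, the lowest value of the study, and at 522 CPM in replicate 3, whereas replicate 5 held the highest TFRC value of all libraries (981 CPM). This gave -0.28 on the log2 scale (SE 0.17, edgeR adjusted p = 0.363), and -0.05 without the 3 libraries (SE 0.09, 95% interval -0.23 to 0.14). FTH1 (0.16), FTL (0.04), NCOA4 (-0.22), ACO1 (-0.20), FBXL5 (-0.26) and SLC40A1 (0.24) had adjusted p from 0.315 to 0.908 by edgeR. In the fit without the 3 libraries, FTH1 (-0.04) and FTL (-0.16) were below 0, NCOA4 was at -0.03, ACO1 at -0.06, FBXL5 at -0.11 and SLC40A1 at 0.50, with adjusted p from 0.527 to 0.943. In replicate 6, SLC40A1 rested on 1 count.

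ITE in hypoxia, both stimuli together and the interaction complete the design, and they share their hypoxia + ITE libraries. For ITE against DMSO in hypoxia, 0.0597% of all genes were called higher and 0% lower. All 9 members missed the threshold by edgeR, DESeq2 and limma voom, and 0 had an unadjusted p under 0.05, against 1122 of all genes. The members' log2 fold changes ran from -0.54 (SLC40A1, 95% interval -1.55 to 0.47) to 0.01 (FTL). They ran, without the 3 libraries, from -0.12 (FTL) to 0.11 (FBXL5), with SLC40A1 at -0.11 (95% interval -1.15 to 0.93). Separated groups were found for 0.153% of genes higher, 0.128% lower and no member. For both stimuli against neither, 1.79% of all genes were called higher and 0.528% lower, and 0 members passed by these tools. Here 1 member, SLC11A2, had an unadjusted p under 0.05, as did 2268 of all genes. Separated groups were found for 1.26% of genes higher and 0.801% lower, and for no member. For the interaction, edgeR called 0% of all genes in either direction, with 374 genes and 0 members at an unadjusted p under 0.05, and no other tool run called any. All 9 interaction terms of the members were below 0 (median -0.25), as were 5528 of all 11735 genes (median 0.02). Without the 3 libraries, 8 of the members were below 0 (median -0.12), as were 5643 of all genes. The members were measured in the same libraries, so their signs are not independent.

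Leaving SLC40A1 aside, the 40 intervals of the other 8 members in the 5 comparisons between groups ran from 0.552-fold to 1.59-fold. Changes of 2-fold or more in these mRNAs after 6 h were thus outside all 40 intervals.

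The ratio of TFRC to FTH1 was examined in each library because the receptor carries the element in the 3′ UTR and ferritin in the 5′ UTR. Its mean log2 value was -1.64 in normoxia + DMSO (range -1.75 to -1.47) and -1.64 in normoxia + ITE (-1.85 to -1.52). In hypoxia it was -1.88 with DMSO (-3.15 to -1.40) and -2.12 with ITE (-3.46 to -1.29). The 3 lowest ratios of the 24 belonged to the 3 libraries that follow GC content and length, and the means without them were -1.62 in hypoxia + DMSO (n = 5) and -1.66 in hypoxia + ITE (n = 4). Across the 24 libraries, which share depth and base composition within each library, log2 CPM of TFRC and FTH1 had a Pearson r of -0.79, and in the other 21 libraries it was -0.02. For FTH1 and FTL, r was 0.74 and 0.50, and for FBXL5 and IREB2 it was 0.84 and 0.63. The ratio of FTH1 to FTL stayed between a mean log2 value of 0.28 (normoxia + ITE) and 0.42 (normoxia + DMSO).

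**Figure D4:**
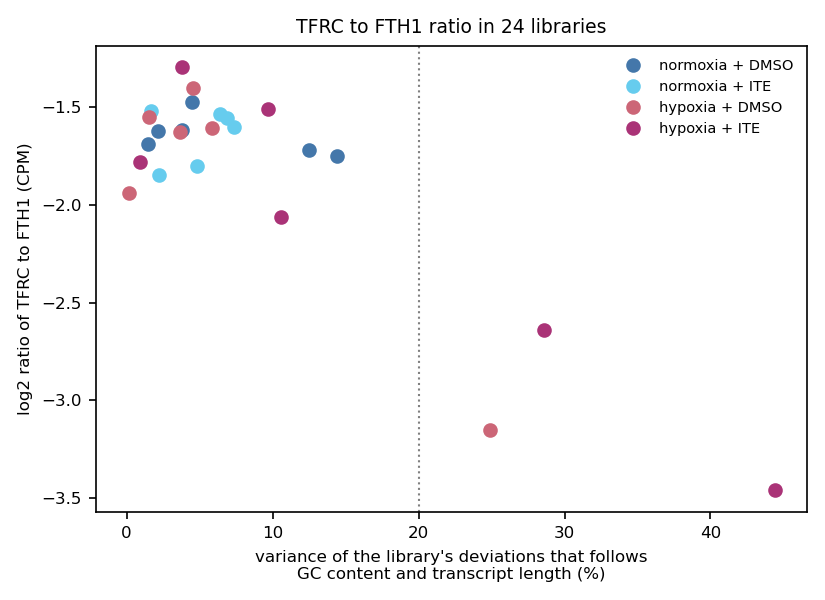
Log2 ratio of TFRC to FTH1 CPM (vertical axis) against the percentage of variance of each library's gene deviations that follows GC content and transcript length (horizontal axis), with 1 point for each of 24 libraries, coloured by group, and a dotted line at 20%. The 3 libraries right of the line lie at -2.64 or below, and the other 21 lie between -2.06 and -1.29.

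The genes whose log2 CPM followed TFRC most closely over the 24 libraries were ICMT (r = 0.94), GPR176 (0.93) and ASCC3 (0.92). By Spearman correlation the leading genes were GPR176 (rho = 0.86), FRMD6 (0.84) and PANK3 (0.83), and without hypoxia + ITE replicate 6 they were PANX1 (0.94), FLII (0.93) and WHSC1 (0.93). The list thus depended on the measure and on that library.

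Other genes of iron handling were set beside the members. Of 80 such genes, 79 were in the files and 61 were tested. In the edgeR fit of all 24 libraries with a mean for each group, a single gene passed the threshold in any comparison. CPOX, coproporphyrinogen oxidase of the heme synthesis pathway, rose in hypoxia with DMSO. Its level was 49.0 to 65.1 CPM (median 54.0) in normoxia + DMSO and 79.7 to 100.3 CPM (median 83.2) in hypoxia + DMSO, without overlap, as for 1.8% of all genes in the higher direction. The log2 fold change was 0.60 (SE 0.15, 95% interval 0.30 to 0.91, edgeR adjusted p = 0.0343). In hypoxia with ITE it was 0.29 (edgeR adjusted p = 0.27), and 0.45 without the 3 libraries (SE 0.09, edgeR adjusted p = 0.00406). The interaction for CPOX was -0.31 (SE 0.21, edgeR adjusted p = 0.915), and -0.12 without the 3 libraries. The call in DMSO was lost without hypoxia + DMSO replicate 2, the shallowest library (0.56, edgeR adjusted p = 0.076), with upper quartile normalisation (0.57, edgeR adjusted p = 0.065) and with the replicate block over 24 libraries (0.60, edgeR adjusted p = 0.0562). It was kept in the other fits tried, with adjusted p from 2.61e-06 (sample quality weights, limma voom) to 0.0473 (no filter, edgeR). The fit without the 3 libraries was among these (0.57, edgeR adjusted p = 6.59e-05), and it called 456 of 11735 genes for this comparison. Over the fits tried, 126 to 513 of all genes were called higher.

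In hypoxia with DMSO, heme handling held 1 higher and 0 lower of 15 tested genes, with a median log2 fold change of 0.04 against -0.00 for all genes. Over all tested genes, 1.16% were called higher and 0.136% lower. None of the other lists held a gene past the threshold. Of the 19 tested genes of mitochondrial iron and iron-sulphur clusters, 16 had a positive value (median 0.10), and ISCA1, an assembly factor, had the smallest p (0.31, SE 0.17, edgeR adjusted p = 0.591). Among 10 tested genes of cytosolic cluster assembly (median 0.05), FAM96A had the smallest p (0.41, SE 0.16, edgeR adjusted p = 0.329). Of 6 iron chaperones and partners of FBXL5 or NCOA4 (median 0.19), it was RBX1, a RING subunit of cullin ligases (0.38, SE 0.16, edgeR adjusted p = 0.409). CP, the ferroxidase ceruloplasmin, led 2 tested genes of iron export and systemic control (0.69, SE 0.35, edgeR adjusted p = 0.558). SLC39A8, a metal transporter, led 5 tested genes of uptake and reduction (0.13, SE 0.10, edgeR adjusted p = 0.742). The 4 tested mRNAs with an IRE outside the members all had negative values (median -0.19), as did 5942 of all 11735 tested genes. Of these 4 mRNAs, 3 stayed negative without the 3 libraries. Without the 3 libraries, the medians were -0.01 for heme handling and the mitochondrial list (9 of 19 positive) and -0.03 for cytosolic cluster assembly. They were 0.12 for the chaperones and partners and 0.27 for export and systemic control. Uptake and reduction had -0.09 and the other mRNAs with an IRE -0.10, against -0.02 for all genes. ISCA1 was then at 0.26, FAM96A at 0.21, RBX1 at 0.25, CP at 0.76 and SLC39A8 at 0.08, and all 5 still missed the threshold.

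In hypoxia with ITE, 0 of the 61 genes passed, where 1.89% of all genes were called higher and 0.46% lower. The median of all genes was 0.02. Those of the lists were 0.19 for the mitochondrial list, 0.23 for cytosolic cluster assembly, 0.20 for heme handling and 0.08 for the chaperones and partners. They were 0.35 for export and systemic control, -0.27 for uptake and reduction and -0.14 for the other mRNAs with an IRE. In the same order, they were 0.05, 0.02, 0.00, 0.04, 0.55, -0.05 and -0.04 without the 3 libraries, against -0.00 for all genes. With ITE in normoxia, 0 of the 61 passed, where 0.0511% of all genes were called higher and 0% lower. The medians of these lists then lay between -0.14 and 0.08.

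**Figure D5:**
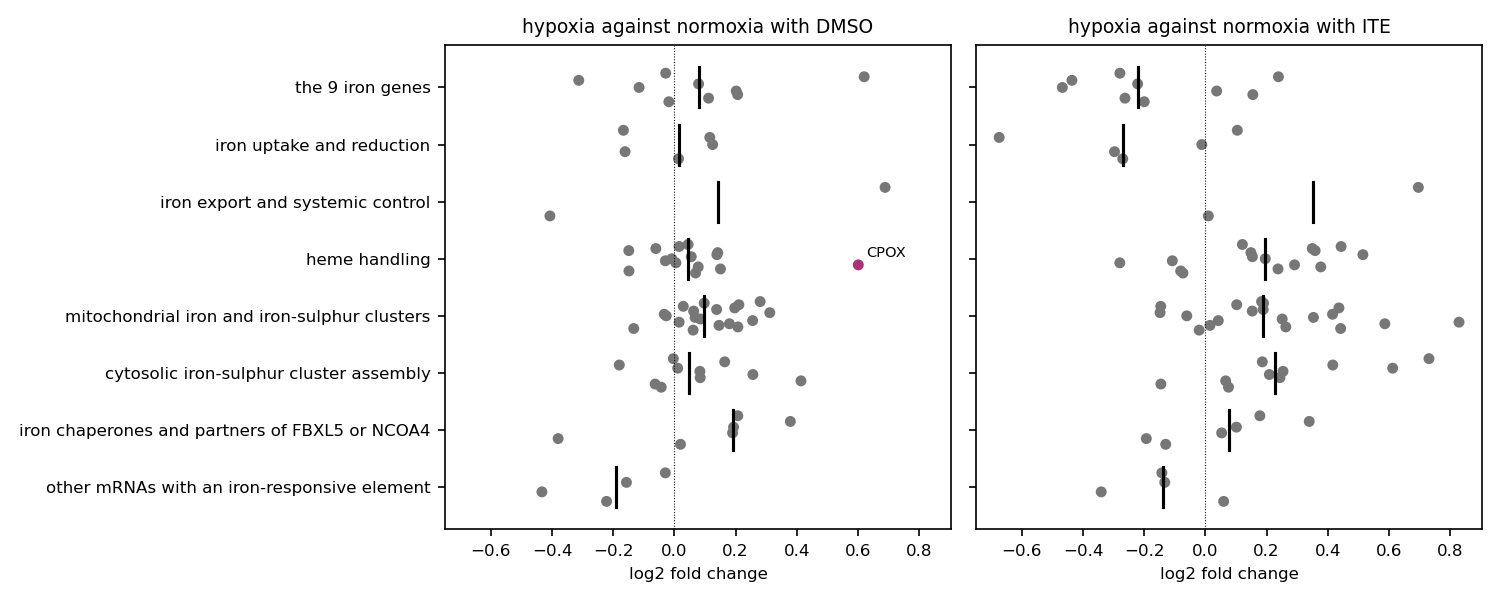
Log2 fold change (horizontal axis) of each tested iron gene in 8 lists (vertical axis) for hypoxia against normoxia with DMSO (left) and with ITE (right); grey points are single genes, black bars list medians, and purple marks an adjusted p under 0.05. CPOX at 0.60 on the left is the only purple point.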

How the data were processed

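RNA from RCC4+VHL cells was sequenced as 24 poly-A libraries. The authors deposited raw read counts per gene symbol and library, not normalised, after removing reads that did not map uniquely. Per the labels, Trim Galore 0.3.3, HISAT2, Picard 2.0.1 and HTSeq 0.5.4p3 were used on GRCh37. The strand setting of the counting is not given in the sources used here.

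Groups and replicate numbers came from the labels. The tools were edgeR 4.0.16, DESeq2 1.42.0 and limma 3.58.1, run in R 4.3.3. Of 23106 symbols, 11735 passed filterByExpr (minimum count 10). After TMM scaling, all 24 libraries entered an edgeR quasi-likelihood fit with a mean for each group. Tests were two-sided, and Benjamini-Hochberg adjustment covered all tested genes, at a threshold of 0.05. DESeq2, which the study's methods name, was an alternative. Log2 CPM used a prior count of 2. The pipeline was tested on simulated data.

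The 9 members and all gene lists were chosen with earlier results of these data known. Named genes are the members, the genes of other lists past the threshold (otherwise the gene with the smallest p in hypoxia with DMSO), NDRG1, CYP1B1 and the 3 genes most like TFRC. Some genes that this rule or the marker lists name are not reported here. Correlations of same-numbered libraries exceeded 0.1 in 2 to 5 of 6 pairs, with 5 of 6 for ITE in normoxia. The sources do not say whether these libraries shared a culture or day. The edgeR fit of all 24 libraries with a mean for each group did not treat them as pairs. No libraries were identical (0 pairs). Alternatives were other normalisations, no filter, the replicate block, the compared groups alone, 2 left-out libraries, sample quality weights and DESeq2. The block within the compared groups, offsets for GC content and length (splines with 5 degrees of freedom), and leaving out 3 libraries were chosen after seeing the data.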

Additional observations from a re-analysis of the deposited data

Results flagged for a closer look

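Among 48 sets of 6 libraries (9 genes and 3 ratios in 4 groups), 5 held a library far from the other 5 by Dixon's criterion, where chance gives about 2.4. The sets are not independent, since they share libraries and the ratios use the same genes, so no excess over chance is read from these counts. In hypoxia + DMSO replicate 1, which follows GC content and length, TFRC was at 475.23 CPM, FTH1 at 4216.5 CPM and the log2 ratio of TFRC to FTH1 at -3.1491. FBXL5 was at 21.485 CPM in hypoxia + ITE replicate 6, the library that follows GC content most closely. SLC40A1 was at 20.613 CPM in hypoxia + DMSO replicate 2, on 15 counts. Whether GC content, length or depth accounts for these values was not tested.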

How the results depend on the processing

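The counts of members past the threshold were 0 in the 6 comparisons under the alternatives that could be fitted, except for ITE in normoxia. There, 1 member (FBXL5) was called higher with sample quality weights and with the replicate block in the compared groups alone. The replicate block over all 24 libraries called 0 members and lost CPOX in hypoxia with DMSO (0.60, edgeR adjusted p = 0.0562), as upper quartile normalisation did (0.57, edgeR adjusted p = 0.065). Of the 3 genes most like TFRC, 1 was shared by Spearman correlation and 0 without hypoxia + ITE replicate 6. Counts over all genes moved more, for example from 5 to 159 against 6 for genes higher with ITE in normoxia and from 126 to 513 against 136 for genes higher with hypoxia in DMSO. For hypoxia with ITE, genes higher ran from 56 to 509 against 222. For both stimuli they ran from 57 to 498 against 210. The interaction was not fitted in the compared groups alone.

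Of 630 log2 fold changes under alternatives, 49 changed sign, none with an adjusted p under 0.24, and the cause was not tested. With ITE in normoxia, SLC11A2 was at -0.0078 (upper quartile), -0.0017 (no filter), -0.0137 (replicate block), -0.0049 (compared groups), -0.0025 (without hypoxia + ITE replicate 6), -0.0536 (quality weights), -0.0112 (GC and length offsets) and -0.0097 (without the 3 libraries). With quality weights, the values were 0.0666 for TFRC and 0.1060 for ACO1 in hypoxia with DMSO, and -0.0381 for FTH1 and -0.1462 for FTL in hypoxia with ITE. For ITE in hypoxia they were -0.1089 (FTL), 0.0736 (FBXL5), 0.0292 (SLC11A2) and 0.2877 (SLC40A1), for both stimuli 0.0265 (ACO1) and 0.0814 (NCOA4), and for the interaction 0.0829 (SLC11A2) and 0.9393 (SLC40A1). With offsets for GC content and length, they were 0.0422 (TFRC) and 0.1089 (ACO1) in hypoxia with DMSO, -0.2516 (FTL) in hypoxia with ITE, -0.2028 (FTL) and 0.0787 (FBXL5) for ITE in hypoxia, and -0.0547 (FTL) and 0.0028 (NCOA4) for both stimuli. Without the 3 libraries, they were 0.0730 (TFRC) and 0.0942 (ACO1) in hypoxia with DMSO, -0.0378 (FTH1) and -0.1587 (FTL) in hypoxia with ITE, and -0.1249 (FTL), 0.1084 (FBXL5) and 0.0124 (NCOA4) for ITE in hypoxia. They were -0.0076 (FTH1) and 0.0938 (NCOA4) for both stimuli and 0.0882 (SLC40A1) for the interaction. Leaving out hypoxia + ITE replicate 6 gave -0.0607 (FTL) in hypoxia with ITE, -0.0805 (FTL), 0.1170 (FBXL5) and 0.0127 (SLC11A2) for ITE in hypoxia, 0.0097 (NCOA4) for both stimuli and 0.0152 (SLC11A2) for the interaction. Leaving out hypoxia + DMSO replicate 2 gave 0.0092 for ACO1 in hypoxia with DMSO (-0.0176 without hypoxia + ITE replicate 6). Without hypoxia + DMSO replicate 2, the other values that changed sign without hypoxia + ITE replicate 6 kept theirs, with SLC11A2 at 0.0020 for ITE in normoxia, FTL at 0.0366 in hypoxia with ITE, FTL at 0.0419, FBXL5 at -0.0591 and SLC11A2 at -0.0709 for ITE in hypoxia, NCOA4 at -0.0912 for both stimuli and SLC11A2 at -0.0730 for the interaction. For ITE in hypoxia, FTL was at -0.0029 (upper quartile), -0.0065 (replicate block) and -0.0016 (compared groups with the block). For both stimuli, SLC40A1 was at -0.0243 (replicate block) and -0.1450 (compared groups with the block). SLC40A1 had as few as 1 count in a library, and the part of depth in its spread was not tested.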

Other observations

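Among the other iron genes, SLC48A1, RBX1, FDX1L and CP passed the threshold under single alternatives, and all but RBX1 and CP are named after their values were seen. SLC48A1, a heme transporter, was lower with ITE in normoxia when the compared groups were fitted alone with the replicate block (log2 fold change -0.36, edgeR adjusted p = 0.0385). RBX1 (0.51, adjusted p = 0.0378) and FDX1L (0.68, adjusted p = 0.0494), a mitochondrial ferredoxin, were higher with both stimuli than with neither by DESeq2. CP was higher in hypoxia with ITE under sample quality weights (1.11, limma voom adjusted p = 0.0175). Over the fits tried, the number of all genes called reached 95 for lower with ITE in normoxia. It reached 498 for higher with both stimuli and 509 for higher in hypoxia with ITE. CPOX was higher with both stimuli than with neither without hypoxia + ITE replicate 6 (0.44, edgeR adjusted p = 0.00669) and under sample quality weights (0.47, limma voom adjusted p = 0.000512).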
